A study of Mus musculus with 3 samples.

Results

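The 37 genes of the mouse mitochondrial genome (assembly mm10, chromosome M) were described in RNA sequencing of T helper 1 (Th1) cells, a class of CD4 T cell known for making interferon gamma. The genes were taken as every row placed on chromosome M, 37 of 50600 genes in the deposited tables, and were split by annotated strand (28 plus, 9 minus) and by class from their symbols (13 protein, 2 ribosomal RNA, 22 transfer RNA). The choice used position and name alone, not measured values. The study provided 3 libraries of 1 group, primary Th1 cells of mouse strain C57BL/6NJ with no genetic change or drug named in the labels. By the names in the file headers they were taken 48 h into a course of Th1 and Th2 differentiation; their sex was not recorded, nor is an age known. In the labels the libraries are biological replicates with numbers of their own, but they have 1 shared donor identifier and no separate animals or cultures are named. Tests between libraries therefore measure only how these samples differ, and that spread may be technical. No other group was analysed here, so the comparisons are those between genes and strands within a library and between the libraries.

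Mitochondrial DNA is a small circle packed with genes on both strands. Each strand is transcribed as a long RNA that covers many genes, and the tRNAs that lie between the other genes are cut out to release the mRNAs and rRNAs. The mRNAs encode core subunits of the respiratory chain and of ATP synthase, and T cells that are activated expand this machinery as they begin to divide. In the reference, the minus strand carries mt-Nd6, a subunit of complex I (the NADH dehydrogenase), and 8 tRNA genes, while the plus strand carries the other 12 protein genes, both rRNA genes and 14 tRNA genes.

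The deposited counts were made with a strand setting of 1, which assigns a fragment to a gene on the strand of its first read. If the library kit reads the other strand, each fragment would instead stem from RNA complementary to the gene that received it. Nothing in the sources used here names the kit. Every value below is therefore given as counted for the annotated gene, and what it would be under the opposite strand assignment is said where that matters. On chromosome M that difference is large, because up to the end of the last gene 92.7% of positions lie under plus-strand genes alone, 6.80% under minus-strand genes alone, 0.130% under both and 0.370% under none. Under the opposite assignment, plus-strand RNA was counted only where it crosses the 1068 bases of the 9 minus-strand genes, and counts of plus-strand genes are RNA complementary to them.

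The strands meet at 3 places where a plus-strand and a minus-strand gene share their last bases. These ends are shown because a fragment there is split between the genes by strand alone. Each sequence runs 5′ to 3′ in the sense of its own gene, from the GENCODE M21 transcripts (assembly GRCm38), with the shared bases in capitals. The genes mt-Nd5 and mt-Nd6 share 14 bases (chrM:13552-13565), mt-Co1 and mt-Ts1 share 3 (chrM:6870-6872), and mt-Ti and mt-Tq share 3 (chrM:3772-3774).
mt-Nd5, last 60 bases: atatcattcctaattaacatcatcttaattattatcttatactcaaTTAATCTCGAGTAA
mt-Nd6, last 60 bases: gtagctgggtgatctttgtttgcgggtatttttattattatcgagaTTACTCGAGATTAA
mt-Co1, last 60 bases: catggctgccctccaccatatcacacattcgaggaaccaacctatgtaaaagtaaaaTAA
mt-Ts1, whole: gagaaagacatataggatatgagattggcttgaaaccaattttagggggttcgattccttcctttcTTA
mt-Ti, whole: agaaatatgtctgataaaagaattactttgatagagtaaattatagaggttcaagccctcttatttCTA
mt-Tq, whole: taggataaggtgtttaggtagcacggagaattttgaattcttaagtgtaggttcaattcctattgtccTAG

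The libraries differed in depth. Replicate 1 held 4742025 counts, replicate 2 held 50627 and replicate 3 held 3543816. A gene at 0 counts could therefore stand at up to 0.633, 59.3 and 0.847 CPM (counts scaled to the library total) in replicates 1, 2 and 3, with the limit set at 3 counts. Intervals and limits here cover counting error only, and a limit holds only for a gene whose fragments could be counted. Replicates 1 and 3 also stood apart in RNA beyond the mitochondria. Genes with exons under an opposite-strand gene took 52.7%, 57.8% and 72.2% of all counts in replicates 1, 2 and 3. Xist, the RNA of the inactive X chromosome, had 691, 18 and 3 counts, or 146, 356 and 0.847 CPM. The part of these differences in the results below was not tested. Of the T cell and Th1 markers, Cd3e, Cd3g, Trac, Cd4, Tbx21 and Ifng had counts in every library (442, 9 and 175 for Cd3e; 150, 2 and 44 for Ifng). Lyz2, Itgam, Ms4a1, Ncr1, Klrb1c, Cd8a, Hbb-bs and Hba-a1, markers of myeloid, B, natural killer, CD8 and red cells, had 0 in all 3. Cd79a had 10, 0 and 22 counts, Cd8b1 21, 1 and 13, and the myeloid gene Csf1r 1096, 10 and 1606, with 17.8% of its exonic length under exons of the other strand. Whether these counts stem from such cells was not tested. Under the opposite assignment the counts of every gene named in this paragraph, zeros included, would be of RNA complementary to it. A 0 would then not speak to the RNA of the gene itself. The Th2 genes Gata3 (68, 0 and 37 counts) and Il4 (25, 2 and 24) had counts too, except Gata3 in replicate 2. In replicate 2 Ifng and Il4 had 2 counts each, and in replicate 3 Ifng had 44 against 37 for Gata3.

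Mitochondrial genes took a small share of the libraries. They held 54322, 888 and 47427 counts in replicates 1, 2 and 3, or 1.15% (exact Clopper-Pearson 95% interval 1.14 to 1.16), 1.75% (1.64 to 1.87) and 1.34% (1.33 to 1.35) of all counts. The mean was 1.41% ± 0.311 (SD, n = 3), and the 3 intervals do not overlap, so the libraries differed by more than counting error. In bulk RNA, more mitochondrial RNA per cell and more cells of a type rich in it cannot be told apart. The share depended on what it was divided by. It was 3.69% against genes whose exons overlap none on the opposite strand, and 4.85% of TPM, where each count is divided by gene length.

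By class, protein genes dominated. They took 94.6%, 93.1% and 94.1% of the mitochondrial counts in replicates 1, 2 and 3. The 2 ribosomal RNA genes took 3.45% (3.30 to 3.61), 3.38% (2.29 to 4.79) and 1.71% (1.59 to 1.83), and the 22 tRNA genes 1.95% (1.84 to 2.07), 3.49% (2.38 to 4.92) and 4.17% (4.00 to 4.36). Replicate 3 had the lowest share of rRNA and the highest of tRNA, and for both its interval lay outside that of replicate 1.

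**Figure D1:**
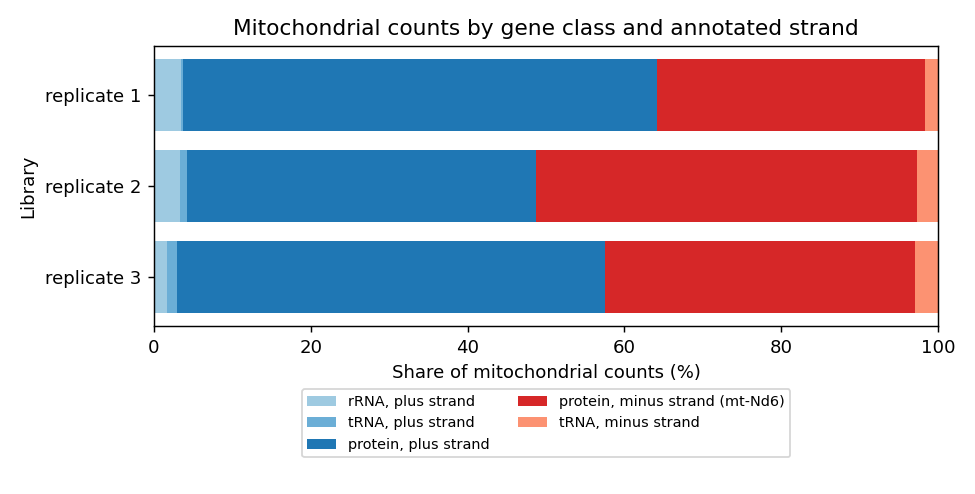
Share of mitochondrial counts (%, horizontal axis) by gene class and annotated strand in each of the 3 libraries; bars are stacked to 100 and blue stands for plus-strand genes, red for minus-strand genes. The single gene mt-Nd6 (dark red) takes 34.2%, 48.5% and 39.5% in replicates 1, 2 and 3.

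By strand, the 9 minus-strand genes took far more counts than their length. Their 1068 bases received 35.9% (35.4 to 36.3), 51.2% (47.9 to 54.6) and 42.4% (42.0 to 42.9) of mitochondrial counts, against 14373 bases of plus-strand genes for the rest. Per kb the minus-strand genes stood 7.52-fold, 14.1-fold and 9.92-fold above the plus-strand genes in replicates 1, 2 and 3, a mean log2 ratio of 3.35 ± 0.46 (SD, n = 3). The ratio was above 0 in 3 of 3 libraries, and the exact two-sided sign-flip test gave p = 0.25, the smallest that 3 libraries allow. This rested on mt-Nd6: without it the mean log2 ratio was 0.14, and without the 6 genes that share bases with the other strand, mt-Nd6 among them, it was 0.93. The plus-strand length includes genes at 0 in a span with nuclear copies, described below. Without the genes wholly inside that span the mean log2 ratio was 3.07. Under the opposite strand assignment the same numbers describe RNA in the plus-strand sense across minus-strand gene positions, and the ratio of minus-strand to plus-strand RNA becomes -3.35.

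mt-Nd6 (ENSMUSG00000064368, chrM:13552-14070, minus strand) was the highest of the 37 genes per kb in every library. It held 18553, 431 and 18733 counts in replicates 1, 2 and 3, which is 7538, 16403 and 10185 CPM per kb of gene. Its share of mitochondrial counts was 34.2% (33.8 to 34.6), 48.5% (45.2 to 51.9) and 39.5% (39.1 to 39.9). Per kb it stood 5.23-fold (exact 95% interval 5.11 to 5.36), 13.6-fold (10.9 to 17.2) and 14.0-fold (13.5 to 14.5) above mt-Co1. These folds use the whole length of mt-Co1, of which 31.3% has a copy on chromosome 1. The coding strand of mt-Nd6 differs in composition from that of the 12 plus-strand protein genes: 28.1% G and 5.97% C, against 5.88% to 16.1% G and 22.1% to 30.0% C. Under the opposite assignment these counts would be RNA complementary to mt-Nd6, in the plus-strand sense, from the positions that follow the 3′ end of mt-Nd5 shown above.

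Of the 12 plus-strand protein genes, 6 had more than 4 counts in every library. mt-Co1, the catalytic subunit of cytochrome c oxidase, stood at 1441, 1202 and 727 CPM per kb in replicates 1, 2 and 3 (10559, 94 and 3981 counts). The complex I gene mt-Nd1 stood at 1011, 1011 and 470 CPM per kb (4589, 49 and 1593 counts). mt-Cytb, the cytochrome b of complex III, stood at 900, 967 and 475 CPM per kb. For these genes replicate 3 was the lowest library. The complex I gene mt-Nd2 stood at 704, 837 and 453 CPM per kb and mt-Nd4 at 547, 745 and 575 CPM per kb. mt-Nd5, also of complex I, went the other way, at 667, 1094 and 2155 CPM per kb (5767, 101 and 13927 counts).

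The order of these genes therefore differed between libraries. Per kb, mt-Co1 exceeded mt-Nd1 1.43-fold in replicate 1 (exact 95% interval 1.38 to 1.48) and 1.55-fold in replicate 3 (1.46 to 1.64), while in replicate 2 the interval of 0.833 to 1.72 did not separate them. mt-Nd1 and mt-Cytb differed 1.12-fold in replicate 1 (1.08 to 1.17) and not beyond counting error in replicate 3 (0.988-fold, 0.924 to 1.06). mt-Nd5 was 0.463-fold mt-Co1 in replicate 1 (0.448 to 0.478) and 2.96-fold in replicate 3 (2.86 to 3.07). Its share of mitochondrial counts was 10.6%, 11.4% and 29.4%.

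The ribosomal RNA genes stood below mt-Co1, mt-Nd1, mt-Nd2, mt-Nd4, mt-Nd5, mt-Cytb and mt-Nd6 in every library. mt-Rnr1, the small-subunit rRNA, stood at 206, 269 and 95.7 CPM per kb, and mt-Rnr2, the large-subunit rRNA, at 126, 212 and 86.7 CPM per kb. mt-Co1 exceeded mt-Rnr2 11.5-fold, 5.66-fold and 8.39-fold in replicates 1, 2 and 3. mt-Rnr1 was above mt-Rnr2 in replicate 1 (1.64-fold, with an exact 95% interval above 1), and in replicates 2 and 3 the intervals included 1 (0.566 to 2.77 and 0.957 to 1.27). The labels call the assay total RNA-seq, whereas the linked library protocol is named for poly(A)+ RNA, and the files do not show which step set the level of rRNA. Under the opposite assignment these counts would be RNA complementary to the rRNA genes, and would not give the level of rRNA.

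**Figure D2:**
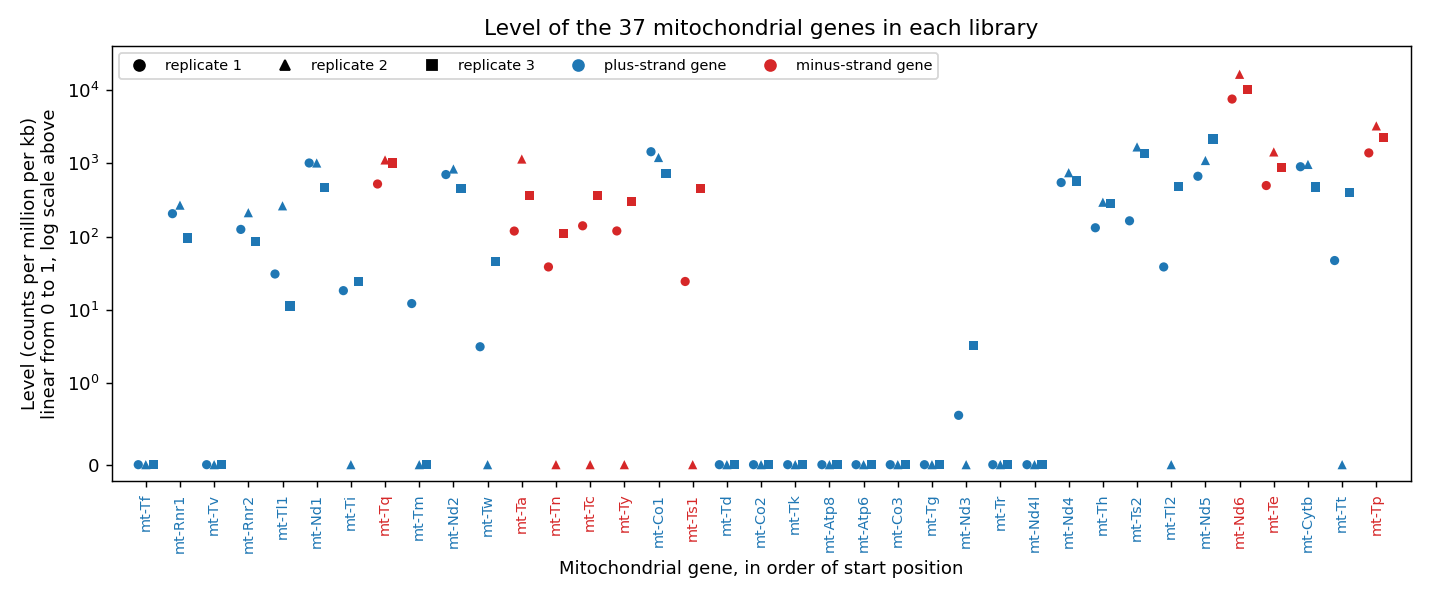
Level of each of the 37 genes (CPM per kb, vertical axis, linear from 0 to 1 and logarithmic above) in gene order along the circle, with 1 marker shape for each library and red for minus-strand genes. mt-Nd6 is the highest in every library, and from mt-Td to mt-Nd4l every marker lies at 0 except those of mt-Nd3.

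Summed by strand, the minus-strand tRNA genes held more counts, although single genes of the strands overlapped. All 8 minus-strand tRNA genes had counts in replicates 1 and 3, with 922, 24 and 1391 in all, against 138, 7 and 588 for the 14 of the plus strand, of which 6 had 0 in every library. Per kb the minus-strand tRNA genes stood at 354, 863 and 715 CPM per kb and the plus-strand ones at 30.6, 145 and 174 CPM per kb. With the opposite strand assignment, the counts of each tRNA gene here and below would be of RNA complementary to it. In replicate 3 the plus-strand gene mt-Ts2, at 1358 CPM per kb, lay above each minus-strand tRNA gene except mt-Tp. Highest was mt-Tp, the tRNA for proline at the end of the gene order, with 441, 11 and 532 counts. mt-Tq (glutamine) had 176, 4 and 255, and mt-Te (glutamate), next to mt-Nd6, had 163, 5 and 216.

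The tRNA genes of the cluster mt-Ta (alanine), mt-Tn (asparagine), mt-Tc (cysteine) and mt-Ty (tyrosine) had 39, 13, 44 and 38 counts in replicate 1 and 90, 28, 86 and 72 in replicate 3. In replicate 2 only mt-Ta of these 4 had counts, with 4. mt-Ts1 (serine), whose end overlaps mt-Co1, had 8, 0 and 112. Of the plus strand, mt-Ts2 (serine) had 46, 5 and 284 counts, mt-Th (histidine) 42, 1 and 68, mt-Tl2 (leucine) 13, 0 and 122 and mt-Tt (threonine) 15, 0 and 94. mt-Tl1 (leucine), mt-Ti (isoleucine), mt-Tm (methionine) and mt-Tw (tryptophan) had at most 11 counts in any library, and mt-Tf (phenylalanine) and mt-Tv (valine), which flank mt-Rnr1, had none.

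Abutting tRNA genes on opposite strands could be compared at the same place. The 3′ ends of mt-Tp and mt-Tt abut, and per kb mt-Tp stood 29.4-fold above mt-Tt in replicate 1 (exact 95% interval 17.6 to 53.0) and 5.66-fold in replicate 3 (4.54 to 7.12). mt-Tq stood 28.5-fold above mt-Ti in replicate 1 (12.8 to 78.7) and 41.3-fold in replicate 3 (18.7 to 114). With the opposite strand assignment, these folds would set plus-strand RNA across mt-Tp and mt-Tq against minus-strand RNA across mt-Tt and mt-Ti. Spacing on the same strand also differed, which matters because the counting command does not assign a fragment that touches 2 genes of a strand. The 8 plus-strand tRNA genes with a same-strand neighbour within 5 bases on each side had medians of 5.5, 0 and 1.5 counts in replicates 1, 2 and 3. The 6 minus-strand tRNA genes with no same-strand gene within 300 bases on at least 1 side had medians of 101, 4 and 164, and the 3 such plus-strand genes 1, 0 and 11. The part of spacing in these counts was not tested. The sequences of 4 of these tRNA genes are shown, with no base marked: the abutting pair mt-Tp and mt-Tt, and the neighbours mt-Ts2 and mt-Tl2.
mt-Tp, whole (chrM:15356-15422, minus strand): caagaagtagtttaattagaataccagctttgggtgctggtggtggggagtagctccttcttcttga
mt-Tt, whole (chrM:15289-15355, plus strand): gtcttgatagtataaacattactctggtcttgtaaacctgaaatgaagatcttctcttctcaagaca
mt-Ts2, whole (chrM:11613-11671, plus strand): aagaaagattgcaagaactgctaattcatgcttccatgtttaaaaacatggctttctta
mt-Tl2, whole (chrM:11671-11741, plus strand): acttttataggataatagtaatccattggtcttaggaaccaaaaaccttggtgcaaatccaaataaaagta

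A long stretch of the plus strand had no counts. From mt-Td to mt-Tg (chrM:6942-9458), 7 neighbouring genes spanning 2517 bases had 0 counts in every library: the aspartate, lysine and glycine tRNA genes, the cytochrome c oxidase genes mt-Co2 and mt-Co3, and the ATP synthase genes mt-Atp8 and mt-Atp6. Beyond them mt-Nd3 of complex I had 1, 0 and 4 counts, and mt-Tr (arginine) and mt-Nd4l of complex I again had 0. Allowing at most 5 counts, the stretch ran over 10 genes and 3232 bases to the end of mt-Nd4l. In all, 11 of the 37 genes had 0 counts in every library, 5 protein and 6 tRNA genes, all on the plus strand. These zeros would, under the opposite assignment, be of RNA complementary to the genes. They would then not speak to the RNA of the genes themselves. Were its fragments countable, mt-Co3 at 0 would stand at up to 0.807, 75.6 and 1.08 CPM per kb in replicates 1, 2 and 3. In replicates 1 and 3 mt-Co1 stood at 1441 and 727 CPM per kb. A nuclear copy described below matches 783 bases of mt-Co3 at 100% identity, and fragments that fit both places may not have been counted. The 0 therefore sets no firm upper level for mt-Co3 and does not place it below mt-Co1.

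The stretch matched a set of near-identical gene copies in the nucleus. On chromosome 1 the tables hold 7 neighbouring pseudogenes (chr1:24611535-24616197, minus strand), whose transcript sequences aligned to mt-Co1, mt-Co2, mt-Atp6 with the end of mt-Atp8, mt-Co3, mt-Nd3, mt-Nd4l and mt-Nd4 in the same order. The alignments cover chrM:6390 to 11042. The 5 copies of mt-Co2 (Gm28661), mt-Atp6 (Gm10925), mt-Co3 (Gm28437), mt-Nd4l (Gm10222) and mt-Nd4 (Gm28439) had 100% identity over 681, 678, 783, 294 and 876 bases. A fragment from an identical stretch has more than 1 place in the genome, and such fragments are uncertain between gene and copy. The counting command names no option to count fragments with several alignments.

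The zero counts lay mostly in the copied span. Of the 11 mitochondrial genes that lie wholly inside it, 9 had 0 counts in every library, and of the 26 others 2 did (mt-Tf and mt-Tv). The exceptions inside were mt-Nd3 and mt-Ts1, which lies on the minus strand. Among windows of 50 bases, 100% of those of mt-Co2, 99.9% of mt-Co3, 99.5% of mt-Atp6, 98.8% of mt-Nd4l and 98.0% of mt-Nd3 occurred exactly in an annotated nuclear transcript. The figures were 0% for mt-Nd6, mt-Nd1, mt-Cytb and mt-Rnr1. For the 4 tRNA genes at 0 inside the span no annotated nuclear transcript holds the sequence, and mt-Atp8 shared only its last 43 bases; the nuclear sequence between the copies was not analysed here. Both genes at the edges, which were well counted in the deep libraries, also had such windows, 51.1% for mt-Co1 and 62.2% for mt-Nd4. The chromosome 1 copies cover 31.3% of mt-Co1 and 63.6% of mt-Nd4, and a further copy, on chromosome 2, aligns to all of mt-Co1. Per kb of the bases outside the chromosome 1 copies, mt-Co1 would stand at 2097, 1748 and 1058 CPM and mt-Nd4 at 1502, 2046 and 1577 CPM. These values divide all counts of each gene by those bases, as if no counted fragment came from the copied ones. Bases shared with other nuclear transcripts were not taken out.

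The copies themselves had few counts, with 1 exception. Of the 7, 6 had at most 3 counts in any library. Gm28438, the copy of mt-Nd3, had 138, 4 and 930 counts, or 84.4, 229 and 761 CPM per kb, whereas mt-Nd3 itself had 1, 0 and 4. The alignment of 345 bases holds 1 difference, T3C, in which mt-Nd3 is named first and positions count from 1 at its 5′ end (chromosome M position 9461). The first 61 bases are shown with that base in capitals. Whether this base decides where fragments were counted was not tested.
mt-Nd3, first 61 bases (chrM:9459-9519, plus strand): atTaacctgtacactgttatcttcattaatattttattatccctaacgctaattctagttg
Gm28438, first 61 bases (chr1:24613059-24613119, minus strand): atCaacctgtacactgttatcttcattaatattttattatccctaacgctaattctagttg

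**Figure D3:**
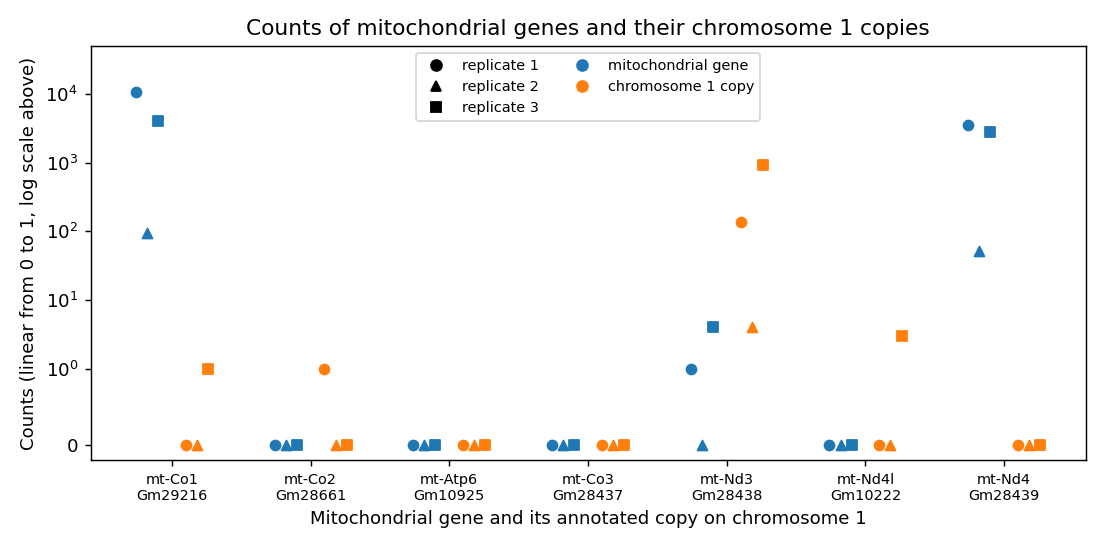
Counts (vertical axis, linear from 0 to 1 and logarithmic above) of 7 mitochondrial genes (blue) and of their annotated copies on chromosome 1 (orange), with 1 marker shape for each library. Only the partly copied genes mt-Co1 and mt-Nd4 have more than 4 counts among the mitochondrial genes, and among the copies only Gm28438 has more than 3.

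Libraries were then compared gene by gene. Each gene with enough counts was tested for variation among the 3 libraries beyond counting error, by a chi-square test on totals scaled with edgeR's TMM over all 7406 genes kept, with Benjamini-Hochberg adjustment. Of the 37 mitochondrial genes 15 were kept by the filter on low counts, and 14 of these varied, against 63.2% of all genes tested. Between the deep libraries, 9 of the 14 were higher in replicate 3 than in replicate 1 and 5 were lower. Over all genes tested, called or not, 34.2% were higher, with a median log2 ratio of -0.25. Among all genes called, 75.2% of the 2404 with opposite-strand exons were higher and 7.99% of the 2277 without. Without the filter 26 were tested and 21 varied (31.1% of all genes), 16 higher and 5 lower. The share of all genes that were higher was not worked out without the filter. Replicate 2 alone against either deep library gave little power: without replicate 1, 1 of 15 varied (mt-Nd5; 9.47% of all genes), and without replicate 3, 4 of 15 did (mt-Nd5, mt-Nd6, mt-Ta and mt-Ts2; 3.65% of all genes). Without replicate 2, 18 of 20 varied (37.9%).

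All 9 minus-strand genes were higher in replicate 3 than in replicate 1 under each of 4 scalings of the same counts. The scalings were TMM, DESeq2 size factors, library totals and mitochondrial totals. Over all genes tested, 34.2%, 38.7%, 26.1% and 24.2% were higher, in that order. The 5 minus-strand genes kept by the filter were all called, against 63.2% of all genes tested. Of the 28 plus-strand genes, 9 were higher with TMM, 8 were lower and 11 were at 0 in both libraries. With TMM the log2 ratio of replicate 3 to replicate 1 was 0.89 for mt-Nd6 (exact 95% interval 0.86 to 0.92), 1.14 for mt-Tp (0.96 to 1.33; adjusted chi-square p = 9.13e-35), 1.28 for mt-Te (0.98 to 1.58) and 1.41 for mt-Tq (1.13 to 1.69). mt-Ts1, with 8 and 112 counts and tested only without the filter, stood at 4.68 (3.65 to 5.93).

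Plus-strand genes are given in 2 runs, drawn after their values were seen, so that their signs are a description. In the first, from mt-Rnr1 to mt-Co1 and with mt-Cytb, ratios lay below 0 with TMM, as for most genes of the table. mt-Nd1 stood at -0.65 (-0.74 to -0.57; adjusted chi-square p = 3.56e-53), mt-Rnr1 at -0.65 (-0.84 to -0.47), mt-Co1 at -0.53 (-0.59 to -0.48) and mt-Cytb at -0.47 (-0.54 to -0.39). mt-Nd2 (-0.18) was called with TMM (adjusted chi-square p = 0.000259) and not with DESeq2 size factors (0.19), and without replicate 2 its ratio was 0.05. mt-Rnr2 (-0.08; adjusted chi-square p = 0.15) did not pass. mt-Nd2 and mt-Rnr2 lie above the median of all genes tested.

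In the run from mt-Nd4 to mt-Nd5 the ratio was 0.52 for mt-Nd4 (0.45 to 0.60), 1.57 for mt-Th (0.99 to 2.16), 3.50 for mt-Ts2 (3.05 to 3.98), 4.10 for mt-Tl2 (3.28 to 5.05) and 2.15 for mt-Nd5 (2.10 to 2.19). mt-Nd4 stood at 0.07 (-0.0015 to 0.14) with library totals and turned to -0.15 when scaled to mitochondrial totals. mt-Tt, which lies next to mt-Cytb, stood at 3.52 (2.73 to 4.41). mt-Tl2 (13 and 122 counts) and mt-Tt (15 and 94) had few counts in replicate 1. The nuclear copy Gm28438 stood at 3.63 (3.37 to 3.89). The 4 neighbours mt-Th, mt-Ts2, mt-Tl2 and mt-Nd5 took 10.8% (10.5 to 11.1), 12.0% (9.98 to 14.4) and 30.4% (29.9 to 30.8) of mitochondrial counts in replicates 1, 2 and 3. Under the opposite assignment these would be shares of RNA complementary to that block. No label names a batch that could be used to compare the libraries within it, so library preparation and sample cannot be told apart.

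**Figure D4:**
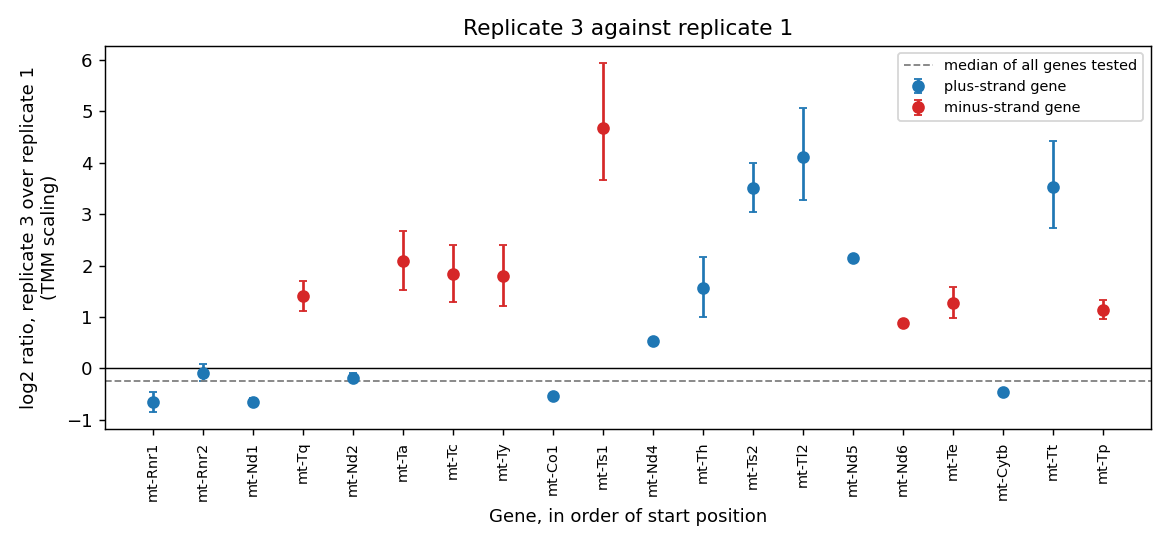
Log2 ratio of replicate 3 to replicate 1 (TMM scaling, vertical axis) for the 20 mitochondrial genes with at least 50 counts over both libraries, in gene order; bars are exact 95% intervals of counting error and the dashed line is the median of all 7406 genes tested (-0.25). Minus-strand genes (red) lie above 0, and plus-strand genes lie below 0 up to mt-Co1 and above 0 from mt-Nd4 to mt-Nd5.

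Nuclear genes that copy, transcribe and process mitochondrial DNA and RNA were set beside these values, as a list of 39. All 39 were matched, 26 were tested and 16 varied (61.5% against 63.2% of all genes tested). As for the genes above, the opposite strand assignment would make the counts of each listed gene RNA complementary to it. Levels and ratios would then not be those of the genes named. Of the 16, 6 were higher and 10 lower in replicate 3, and the median log2 ratio of the 26 was -0.45. This split went with exons on the other strand: of the 7 called genes whose exons overlap some on the opposite strand 6 were higher, and of the 9 without such overlap 0 were. The table as a whole split the same way, with 75.2% of 2404 called genes with overlap higher in replicate 3 and 7.99% of 2277 without. Among the list's tested genes, 8 of 11 with overlap and 0 of 15 without were higher, against 63.6% and 11.5% of all genes tested. Slirp, which binds mitochondrial mRNAs, was the highest of the list at 829, 1383 and 1414 CPM, with 34.4% of its exonic length under exons of the other strand and a log2 ratio of 1.22. Polg, the mitochondrial DNA polymerase, had a ratio of 0.74, Mgme1, a mitochondrial exonuclease, 1.23, Fastk, which acts on mitochondrial RNA, 1.07, Prorp, the nuclease of mitochondrial RNase P, 1.02, and Polg2, the accessory subunit of that polymerase, 0.73. Ssbp1, the mitochondrial single-strand DNA-binding protein (-0.55), and Tfam, which packages mitochondrial DNA and starts its transcription (-0.54), have no such overlap. Polrmt, the mitochondrial RNA polymerase, had 152, 0 and 64 counts and was not kept by the filter; it was named for its role after its values were seen.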

How the data were processed

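Fragment counts per gene, one table for each of 3 libraries, were deposited by the authors without normalization. Per the file headers, featureCounts 1.4.6-p4 counted pairs whose 2 reads both aligned, by gene over its exons, with strand setting 1 and the GENCODE M13 annotation. The library kit is not given in the sources used here. Replicate numbers are those of the labels. All 37 genes were printed, and of the nuclear list the 6 highest by mean CPM and the members called against the direction of its median. The result of 1 cell type marker is not reported here. Genes and lists were chosen with earlier results of these data known.

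Here counts were scaled to CPM and per kb of the deposited gene length. Shares have exact Clopper-Pearson 95% intervals, and ratios exact conditional binomial ones. With 1 group, edgeR's quasi-likelihood test was not possible. Variation was tested with a chi-square statistic (2 degrees of freedom) against TMM-scaled library totals (edgeR 4.0.16, filterByExpr), adjusted over all kept genes at 0.05; expected counts in replicate 2 are small, so the approximation is rough there. DESeq2 1.42.0 gave alternative size factors. On counts simulated for 7406 genes this test recovered 100% of 2-fold changes and called 0.375% of unchanged genes. The simulation drew counting error alone, and the changes were made only in replicate 3, in genes with many counts. It therefore cannot speak to genes with few counts, to changes in replicate 2 or to spread beyond counting error. Copies were found with BLAST+ 2.17.0 among GENCODE M21 transcripts, at 90% identity or more, and exonic overlap with bedtools 2.31.1. All 37 genes have the same coordinates in M21. R 4.3.3 and Python 3.11.15 were used.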

Additional observations from a re-analysis of the deposited data

How the results depend on the processing

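Depth limits replicate 2, where 3 counts are 0.338% of the mitochondrial total. Leaving out each replicate in turn gave a mitochondrial share of 1.24% to 1.55%, a minus-strand share of 39.1% to 46.8% and a strand ratio of 3.11 to 3.57. The count of varying mitochondrial genes was 1 to 18 and that of the nuclear list 1 to 12, with fewer calls where a deep library was left out. The mitochondrial share moved to 3.69% against genes without opposite-strand exons and to 4.85% of TPM. The minus-strand share moved to 68.0% per kb, to 7.14% without genes that share positions with the other strand, and to 56.8% under the opposite strand assignment. The strand ratio turned to -0.40 when counts were not divided by length (exact sign-flip p = 0.50) and to -3.35 under the opposite assignment, by construction. Per kb, the class shares moved to 70.5% protein, 1.43% rRNA and 28.1% tRNA. Among single genes, the log2 ratio of replicate 3 to replicate 1 turned for mt-Rnr2, mt-Nd2 and mt-Nd4. For mt-Rnr2 it was 0.023 with DESeq2 size factors and 0.15 without replicate 2. For mt-Nd2 it was 0.050 without replicate 2, and for mt-Nd4 -0.15 scaled to mitochondrial totals. The counts of replicates 1 and 3 were the same in each setting, and only the scaling changed. Without replicate 2 the TMM scaling moved every gene alike: mt-Nd1 went from -0.65 to -0.42 and mt-Co1 from -0.53 to -0.30. Library totals moved the median log2 ratio of all genes tested to -0.71 and DESeq2 size factors to -0.15. Scaling to mitochondrial totals, leaving out mt-Nd6 or the copied genes, and adding the copies were chosen after seeing the data. No paired analysis was possible because there is 1 group.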

Other observations

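Nuclear copies elsewhere that aligned over at least 100 bases had almost no counts. A further 9 annotated genes, on chromosomes 2, 3, 4, 11 and 13, aligned to a mitochondrial gene over at least 100 bases with 90% identity or more, and they held 0, 0 and 6 counts in all in replicates 1, 2 and 3. They include Gm13340 on chromosome 2, which aligns to the whole of mt-Co1 at 97.6% identity, and Gm11408 on chromosome 4, which aligns to the whole of mt-Nd6 at 93.6% identity and had 0, 0 and 1 counts. A shorter match below that cut lies in Cep295 on chromosome 9, over the 71 bases of mt-Tn at 91.5% identity. Cep295, a gene of 16238 exonic bases, had 563, 11 and 520 counts, and which of its bases received them was not tested. Across the 37 genes, Spearman's rho of CPM per kb ranged from 0.790 for replicates 2 and 3, through 0.840 for 1 and 2, to 0.913 for 1 and 3; genes are not independent replicates, and those at 0 are included.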
